A study of Saccharomyces cerevisiae with 12 samples.

Results

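Loss of SET2 in budding yeast cells that already lacked CHO2 was described from 4 RNA-seq libraries: 2 of the double mutant cho2set2 and 2 of the single mutant cho2, out of 12 libraries in 6 genotypes (WT, set2, cho2, cho2set2, opi1 and opi1set2, 2 libraries each). All strains were Saccharomyces cerevisiae of the CEN.PK background. Every culture had grown to log phase in rich lactate medium (YPL), had been washed and was collected 1 h after transfer to minimal lactate medium (SL), so the control cho2 cells carried the CHO2 deletion and the medium switch as well. The comparison covered the 6582 genes with at least 1 FPKM (fragments scaled to exon length and to the size of the library) in at least 2 of the 12 libraries, with SET2 itself left out.

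Set2 travels with elongating RNA polymerase II and methylates lysine 36 of histone H3 over the bodies of transcribed genes. The Rpd3S deacetylase reads this mark and keeps nucleosomes there deacetylated, which is known to restrain transcription that starts inside genes. Cho2 starts the methylation of phosphatidylethanolamine towards phosphatidylcholine, a reaction that spends S-adenosylmethionine (SAM), the same methyl donor that Set2 uses.

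The deleted gene SET2 (YJL168C, on chromosome X from 102227 to 104428) was counted 239 and 149 times in the cho2 libraries. In the library labelled cho2set2 replicate 1 there were 50 such counts, 25.6% of the cho2 mean after scaling, and in cho2set2 replicate 2 there were 0. The set2 libraries also had 0 and 0, so the library labelled cho2set2 replicate 1 goes against its label in part, and counts of calls and changes of called genes are given below also with cho2set2 replicate 2 alone. YJL169W, which overlaps SET2 on the opposite strand, stood at 1.72 and 1.22 CPM in cho2 and at 0.225 and 0 CPM in cho2set2. CHO2 had 10 and 13 counts in cho2 and 2 and 4 in cho2set2. Pairs of values here and below give replicate 1 and then replicate 2, and CPM are counts scaled to the size of the library by the TMM method. Total counts ran from 7383001 to 9461609 over the 12 libraries, and 3 counts corresponded to 0.323 to 0.394 CPM in these 4, a limit that covers counting error only. Separate cultures for the libraries of a genotype are not stated in the labels, and p-values then measure the spread between these samples, which may be technical. With 2 libraries against 2, an exact permutation test of a single gene cannot go below p = 0.333, and the fits below take their estimate of spread from all genes and all 6 genotypes. Whether reads were counted by strand is not given in the sources used here, so reads of overlapping genes cannot be told apart, and in bulk RNA fewer cells of a type and less RNA per cell cannot be told apart either.

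With SET2 loss in cho2 cells 742 genes were higher and 368 lower (adjusted p under 0.05 in edgeR's quasi-likelihood test, adjusted over all 6582 genes). That is 16.9% of the genes tested, 11.3% higher and 5.59% lower. At least 2-fold changes numbered 272 rises and 78 falls, and at least 4-fold changes 38 and 13. With cho2set2 replicate 2 alone, 715 genes rose (10.9%) and 322 fell (4.89%). Of the calls, 632 rises and 259 falls were made in both fits, and none of the 1110 genes called changed sign between them. The values of the groups did not overlap in 3881 of the 6582 genes tested, among them all 1110 called. Leaving out cho2 replicate 1, cho2 replicate 2 or cho2set2 replicate 2 gave 607, 647 and 491 calls.

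In most called genes the change was smaller in the library labelled cho2set2 replicate 1 than in replicate 2. Of the 742 genes called higher with both libraries, the log2 change of replicate 1 was the lower one in 625, with medians of 0.74 for replicate 1 and 0.95 for replicate 2. Of the 368 called lower, replicate 1 was nearer to cho2 in 300, with medians of -0.53 and -0.72. The order held in genes chosen by replicate 1, a choice that favours large changes in that library. Of the 418 genes called higher and the 73 called lower with replicate 2 left out, replicate 1 had the smaller change in 337 and 60, with medians of 0.93 and 1.17 for the rises and -0.95 and -1.19 for the falls. For the 15 largest falls, replicate 1 stood at 25.6% to 52.1% of the cho2 mean (median 37.4%) and replicate 2 at 5.7% to 29.5% (median 15.8%). In all 15 of these falls and in all 15 of the largest rises, replicate 1 lay between the cho2 libraries and replicate 2, but these genes had to be called also with replicate 2 alone, which favours large changes in replicate 2. Not every gene group had this order: the median of the mitochondrial ribosomal protein list, given below, was 0.32 with both libraries and 0.13 with replicate 2 alone. The SET2 level of the same library, 25.6% of cho2, moves with these values, and its part in them was not tested.

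**Figure D1:**
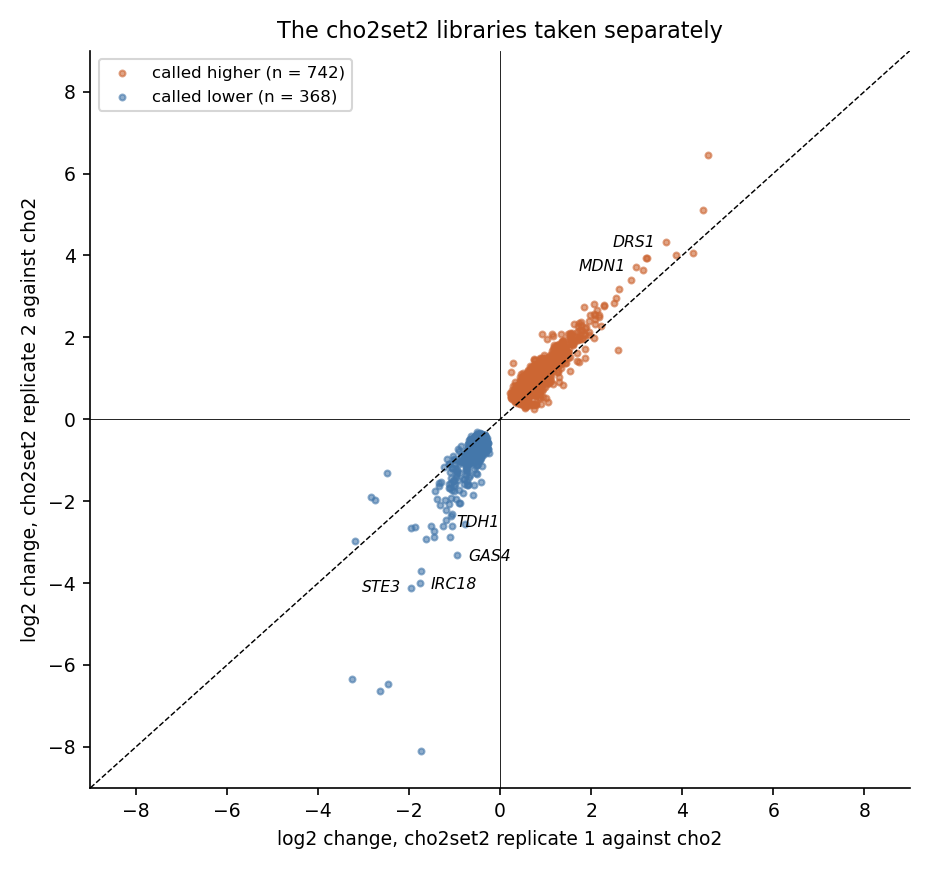
The log2 change against cho2 of the library labelled cho2set2 replicate 1 (horizontal axis) and of replicate 2 (vertical axis), for the 742 genes called higher and the 368 called lower with both libraries. Replicate 2 had the larger change in 625 of the rises and 300 of the falls, and the fall of STE3 is larger there than for replicate 1. The 4 points below -6 on that axis are DAL80, HXT10, YJL169W and YJR157W, which had 0 counts in replicate 2.

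Among genes with counts in both cho2 libraries and at least 5 FPKM in cho2set2, the largest rise without an overlapping gene was that of DRS1 (YLL008W, chromosome XII, 131729 to 133987), a DEAD-box helicase that assembles the large ribosomal subunit. DRS1 stood at 10.3 and 10.3 CPM in cho2 and at 128 and 206 CPM in cho2set2. Both cho2set2 libraries were more than 10-fold above both cho2 libraries, and the log2 change was 4.02 ± 0.25 (SE, n = 2 libraries a group; adjusted p = 2.5e-07), or 4.32 ± 0.22 with replicate 2 alone (adjusted p = 7.94e-08). HXT14 (YNL318C, chromosome XIV, 38707 to 40329), a member of the hexose transporter family, had 7 and 3 counts in cho2 and 115 and 155 in cho2set2. That is a ratio of 28.5 (95% counting interval 15.3 to 60.2) and a log2 change of 4.82 ± 0.52 (adjusted p = 1.49e-05), or 5.12 ± 0.55 with replicate 2 alone, and HXT14 overlaps YNL319W on the opposite strand. EST2, the catalytic subunit of telomerase, stood at 10.1 and 4.89 CPM in cho2 and at 46.4 and 68.9 in cho2set2. Its cho2 libraries differed from each other more, in proportion, than its cho2set2 libraries did, and both cho2set2 libraries were above both cho2 libraries (2.92 ± 0.27, adjusted p = 5.33e-06, and 3.18 ± 0.28 with replicate 2 alone). Other members of the 15 largest rises were PUL3 (2.56 ± 0.29, and 2.79 with replicate 2 alone), YPL044C (3.62), which overlaps NOP4, YJR128W (2.77), which overlaps RSF2, and YBL065W (3.94), which overlaps SEF1, with 3.93, 2.97 and 4.02 for replicate 2 alone. YBL065W had 1 and 2 counts in cho2 and 24 and 23 in cho2set2 (ratio 16.6, counting interval 5.33 to 83.2). The lysine tRNA gene tK(CUU)F had 0 counts in both cho2 libraries and 3 and 10 in cho2set2. That is at least 2.4-fold higher against a floor of 3 counts per library, and its call was lost in 9 of the 10 alternative fits, the exception being that with replicate 2 alone (adjusted p = 0.0311).

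**Figure D2:**
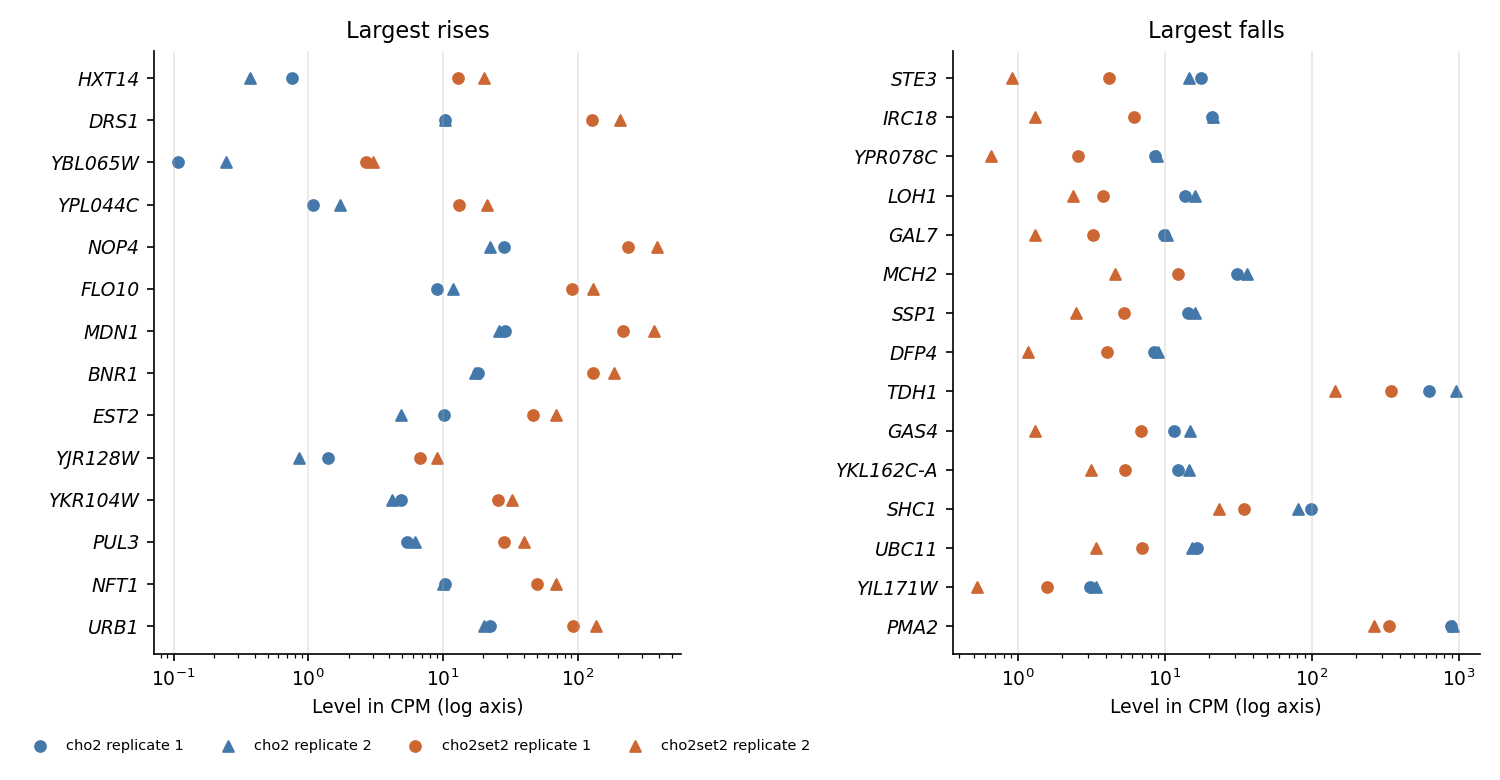
Level of the largest rises (left; tK(CUU)F is not drawn, as it had 0 counts in cho2) and the largest falls (right) in CPM on a log axis, 1 symbol per library. Blue symbols are cho2 and orange ones cho2set2, circles are replicate 1 and triangles replicate 2, and in every gene drawn, all of which were called also with replicate 2 alone, the orange circle lies between the blue symbols and the orange triangle.

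Genes of ribosome assembly rose in number. Of 65 assembly factors of the large (60S) subunit, 23 were higher and 0 lower (35.4% higher, against 11.3% of all genes), with a median log2 change of 0.33 against 0.00 over all genes tested. The count was 20 with replicate 2 alone, and it ran from 16 to 20 over the 4 fits that each left out a library. Of 66 assembly factors of the 90S and small (40S) precursors, 27 were higher and 0 lower (40.9%), with a median of 0.53. That count was also 27 with replicate 2 alone, and leaving out single libraries left 19 to 27. Neither the ribosomal proteins of the cytosol, with 3 of 138 higher and a median of 0.03, nor RNA polymerase I and its factors, with 3 of 18 higher and a median of 0.14, had a share called as large as the assembly factors (2.17% and 16.7%). For replicate 2 alone 1 ribosomal protein gene and 4 polymerase I genes were higher, and leaving out any 1 of the 4 libraries left 0 or 1 ribosomal protein gene called.

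NOP4, an RNA-binding protein of the large-subunit pathway, stood at 28.4 and 22.3 CPM in cho2 and 235 and 389.6 in cho2set2. MDN1 (YLR106C, chromosome XII, 349006 to 363738), the giant ATPase that remodels large-subunit precursors, stood at 28.9 and 26.3 CPM in cho2 and 219 and 366 in cho2set2, and URB1, a nucleolar factor of the same subunit, at 22.3 and 20.2 CPM in cho2 and 93.1 and 136 CPM in cho2set2. In each of the 3 genes both cho2set2 libraries were above both cho2 libraries by more than 4-fold. Their log2 changes were 3.62 ± 0.22 for NOP4 (adjusted p = 2.02e-07), 3.40 ± 0.23 for MDN1 (adjusted p = 3.99e-07) and 2.43 ± 0.18 for URB1 (adjusted p = 7.84e-07), or 3.94, 3.73 and 2.68 with replicate 2 alone. RIX1 (2.35), SPB1 (2.19), URB2 (2.01), MAK21 (1.86) and ERB1 (1.57) also rose in both fits, with 2.50, 2.39, 2.06, 2.03 and 1.79 for replicate 2 alone.

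On the small-subunit side, BMS1, a GTPase of the processome, stood at 23.4 and 24.1 CPM in cho2 and 87.1 and 111 in cho2set2. The DEAH-box helicase gene ECM16 stood at 23.7 and 19.3 CPM in cho2 and 70.7 and 105 CPM in cho2set2, and NOP14, a nucleolar scaffold factor, at 18.7 and 19.6 CPM in cho2 and 63.4 and 86.7 CPM in cho2set2. None of these groups overlapped, and log2 changes were 2.06 ± 0.15 for BMS1 (adjusted p = 7.84e-07), 2.02 ± 0.20 for ECM16 (adjusted p = 8.74e-06) and 1.97 ± 0.20 for NOP14 (adjusted p = 1.09e-05), or 2.23, 2.28 and 2.18 with replicate 2 alone. ENP2, a further factor of the list, stood at 18.2 and 16.5 CPM in cho2 and 60.3 and 77.5 CPM in cho2set2 (1.99 ± 0.22, adjusted p = 1.76e-05), and PWP2 rose by 1.86. Their changes were 2.16 and 2.10 in the fit of replicate 2 alone. Of the polymerase I genes, the large subunits RPA135 (1.61 ± 0.17, adjusted p = 1.09e-05) and RPA190 (1.08 ± 0.21, adjusted p = 0.00224) and the initiation factor RRN7 (1.13 ± 0.21, adjusted p = 0.0017) rose, by 1.76, 1.27 and 1.17 with replicate 2 alone. SPB4, a helicase of the large-subunit pathway that also stands on the list of cryptic promoter genes, is described with that list.

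The PAC element, GATGAG, is known from promoters of ribosome assembly and polymerase I genes, where the repressors Dot6 and Tod6 bind it. It was searched on both strands in the 500 bases before each annotated coding start, in 5786 windows of the R64 (sacCer3) genome of RefSeq. The 8 assembly genes described above with their levels are shown because all of them rose and held it. RIX1 and SPB1 rose as well and held none. Each line is 30 bases on the strand of the gene, 5′ to 3′, with the element in capitals (CTCATC where it lies on the opposite strand).
DRS1 (chrXII:131603-131632, + strand): aaaatgcgatgaGATGAGgttgaaaattgt
NOP4 (chrXVI:469812-469841, + strand): agtctatctcatCTCATCgtttattctgaa
MDN1 (chrXII:363926-363955, - strand): ttttaaagaagcGATGAGctaaggtctatt
URB1 (chrXI:416997-417026, - strand): tcagcaataaagCTCATCgcaaagaatagt
BMS1 (chrXVI:143260-143289, - strand): aattttcaaggcGATGAGctgaagtgaagc
ECM16 (chrXIII:523560-523589, + strand): attttcattggcGATGAGctgagtattgaa
NOP14 (chrIV:190661-190690, - strand): tgataatttagaGATGAGcatttagcgaga
ENP2 (chrVII:781676-781705, + strand): agctcatctcatCTCATCggctgtaatcag
The elements lay 73 (ENP2) to 199 (MDN1) bases before the coding start. PAC was found in 60 of 65 windows of the large-subunit list (92.3%) and in 60 of 66 of the small-subunit list (90.9%), against 27.9% of all windows. Among the called members it was found in 20 of 23 and in 27 of 27, and among all genes called higher in 35.4%. RRPE (AAAATTTT), a further element of the same promoters, was found in 83.1% and 72.7% of the lists, against 12.7% of all windows and 20.3% of the genes called higher. A match describes the letters of a window and is no evidence of binding. Nearly all listed assembly genes held PAC whether they rose or not.

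Within the assembly lists the long genes were called more often. Of the 35 genes of at least 2 kb of exon in both lists together, 29 were higher, with a median log2 change of 1.57, and of the 96 shorter ones 21 were higher, with a median of 0.22. The counts were 30 and 17 with replicate 2 alone. MDN1 has 14733 bases of exon, the longest of those named, and URB1 5295, BMS1 3552 and DRS1 2259.

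Length went with the calls over the whole genome too. Of the 210 genes of at least 4 kb, 105 rose (50.0%) and 3 fell (1.43%), with a median log2 change of 0.51. Of the 1579 genes under 0.5 kb, 48 rose (3.04%) and 65 fell (4.12%), with a median of -0.04. In between, 3.86% rose at 0.5 to 1 kb, 10% at 1 to 2 kb, 26.6% at 2 to 3 kb and 35.0% at 3 to 4 kb. The share that fell was largest at 0.5 to 1 kb, at 9.16%. The share that rose was 1.52% in the shortest and 55.7% in the longest class with replicate 2 alone. The median level per gene was 7.56 CPM in the shortest and 95 CPM in the longest class. The part of depth in the shares was not tested. The median log2 change, which needs no call, was -0.10 and -0.01 in the classes from 0.5 to 2 kb and 0.16 and 0.27 in those from 2 to 4 kb.

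**Figure D3:**
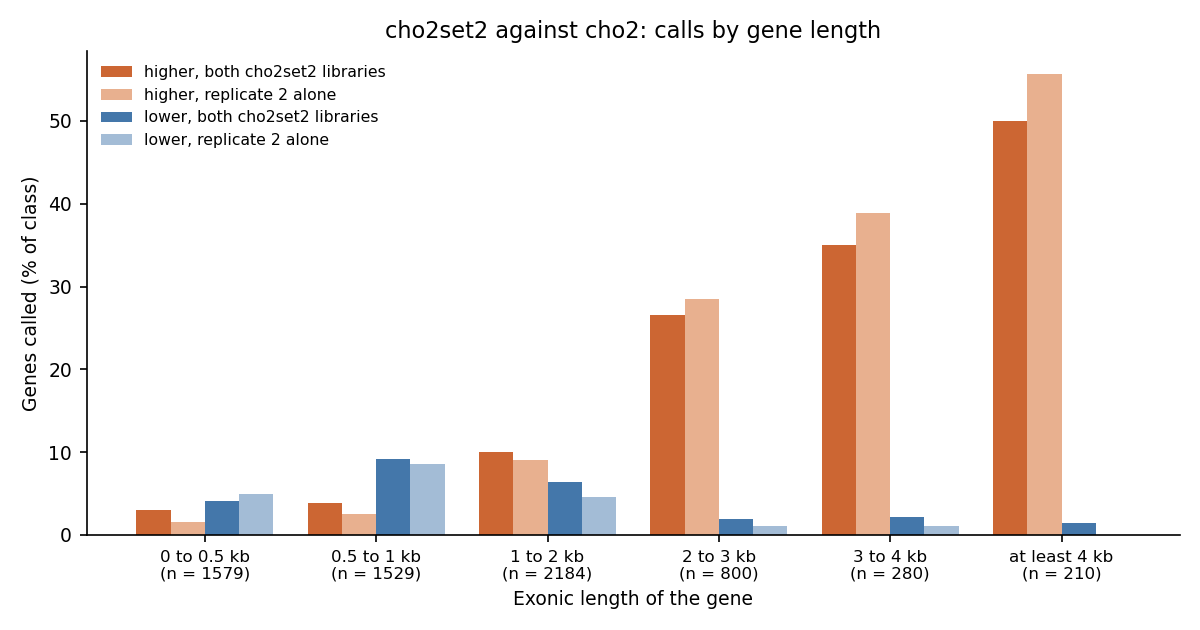
Share of the genes called higher (orange) and lower (blue) in each class of exonic length, in percent of the class, with both cho2set2 libraries (dark) and with replicate 2 alone (pale). The share called higher goes from 3.04% in the shortest to 50.0% in the longest class, and the share called lower is 1.43% in the longest.

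Rises were most frequent among weakly expressed genes. In 5 classes of equal size by the mean FPKM over the 12 libraries, from low to high, 13.4%, 24.2%, 10.9%, 3.80% and 4.18% of the genes rose, and 3.42%, 2.28%, 3.50%, 8.05% and 10.7% fell. The shares for replicate 2 alone were 13%, 24.9%, 10.2%, 3.12% and 3.11% higher and 3.04%, 2.2%, 3.04%, 6.99% and 9.19% lower. Length and level crossed as follows: of the genes of at least 2 kb in the lowest class 50.5% rose and in the next class 45.5%, while of the shorter genes in these classes 6.24% and 10.3% rose. In the classes of the highest levels, 3.38% and 5.88% of the long genes rose. Genes within 20 kb of a chromosome end did not have a larger share of rises (10.5% against 11.3% elsewhere) and had 10.5% of falls against 5.43%. For replicate 2 alone these were 11.4% and 10.9% of rises and 11.9% and 4.66% of falls.

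The genes known for internal start sites that open when H3K36 methylation is lost mostly lay above 0. Of 16 such cryptic promoter genes, 7 were higher and 0 lower (43.8% higher, against 11.3% of all genes). The median log2 change was 0.40, and 15 of the 16 had a positive value. For replicate 2 alone 8 were higher. FLO8, a transcription factor of the flocculin genes and the classic case of a cryptic start site, stood at 13.4 and 13.3 CPM in cho2 and 40.3 and 47.2 in cho2set2 (1.71 ± 0.17, adjusted p = 1.09e-05, and 1.82 ± 0.20 with replicate 2 alone). The cho2set2 libraries lay close together, above both cho2 libraries. RAD28, a protein related to a human DNA repair factor, stood at 76.8 and 74.8 CPM in cho2 and 207 and 262 CPM in cho2set2 (1.63 ± 0.13, adjusted p = 1.73e-06, and 1.79 ± 0.13 with replicate 2 alone). SPB4 stood at 54.7 and 55.7 CPM in cho2 and 154 and 156 CPM in cho2set2 (1.49 ± 0.16, adjusted p = 1.19e-05, and 1.5 with replicate 2 alone), with nearly equal cho2set2 libraries. AVO1, a subunit of TOR complex 2 (1.04 ± 0.19), the cohesin subunit SMC3 (0.96 ± 0.15), the checkpoint clamp subunit DDC1 (0.91 ± 0.15) and the pheromone pathway kinase STE11 (0.58 ± 0.13) made up the rest of the called members, with 1.26, 1.07, 0.88 and 0.66 with replicate 2 alone. The STE11 call was lost without cho2 replicate 1 and without cho2set2 replicate 2. Values for the 9 members that did not pass ran from -0.10 (APM2) to 0.42 (SYF1). LCB5, at 0.34, was the member called with replicate 2 alone and not with both libraries (0.46, adjusted p = 0.0461). By length, 4 of the 10 members of at least 2 kb and 3 of the 6 shorter ones were higher. In the length classes of all genes, 26.6% to 50.0% were higher from 2 kb upwards and 3.04% to 10% below 2 kb. Counts over whole genes do not say where in a gene a transcript started.

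Genes for writers and readers of H3K36 methylation and partner chromatin factors were called in 9 of 36 cases, 8 higher and 1 lower. These are 22.2% and 2.78%, against 11.3% and 5.59% of all genes, and the median was 0.12. The counts were also 8 and 1 with replicate 2 alone, and 4 were higher without cho2 replicate 2 and without cho2set2 replicate 2. SAS3, an acetyltransferase of histone H3, stood at 36 and 35 CPM in cho2 and 81.6 and 91.7 in cho2set2 (1.29 ± 0.12, adjusted p = 7.65e-06, and 1.37 with replicate 2 alone), and it overlaps YBL053W. The nucleosome remodellers CHD1 (1.04 ± 0.18, adjusted p = 0.000938) and ISW1 (0.80 ± 0.13, adjusted p = 0.000662) rose, by 1.25 and 0.83 with replicate 2 alone, as did RCO1 (0.69, and 0.90 with replicate 2 alone), a subunit of the Rpd3S deacetylase. EAF6, a subunit shared by histone acetyltransferases, fell (-0.70, and -0.80 with replicate 2 alone). SAS3, ISW1 and CHD1 have 2496, 3390 and 4407 bases of exon. In the length classes of all genes from 2 kb upwards 26.6% to 50.0% were higher, and the part of length in these rises was not tested.

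In the list of flocculin and adhesin genes, which also holds their regulator FLO8, 6 of 12 rose (50.0%, against 11.3% of all genes). The 1 fall was that of the mannoprotein gene TIR3 (-1.16, and -1.40 with replicate 2 alone). The rises were FLO8, described above, FLO1, FLO5, FLO10, FLO11 and FIG2. The median was 0.66, and the counts with replicate 2 alone were also 6 and 1. FLO10 (YKR102W, chromosome XI, 646356 to 649865), a flocculin, stood at 9.04 and 11.9 CPM in cho2 and 91.6 and 131 CPM in cho2set2, with both cho2set2 libraries well above both cho2 libraries (3.41 ± 0.24, adjusted p = 6.75e-07, and 3.65 ± 0.24 with replicate 2 alone). FLO1 (2.05 ± 0.30, and 2.13 with replicate 2 alone), FLO5 (1.42, and 1.66) and FLO11, the flocculin of filamentous growth (0.84, and 1.05), also rose. FLO1 and FLO5 are near-identical copies in part, and the counting could have split or shared their reads. Of the members that rose, FLO8, FLO10, FLO1 and FIG2 have 2400, 3510, 4614 and 4830 bases of exon. In the length classes of all genes from 2 kb upwards 26.6% to 50.0% were higher. The part of length in the count of this list was not tested. FIG2, an adhesin of mating cells, stood at 18 and 18.2 CPM in cho2 and 45.8 and 77.2 CPM in cho2set2 (1.76 ± 0.25, adjusted p = 0.000183, and 2.09 with replicate 2 alone).

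FLO10 lies at the right end of chromosome XI beside NFT1 and YKR104W, which also stand among the 15 largest rises. NFT1, an ABC transporter of the MRP type, stood at 10.4 and 10 CPM in cho2 and 49.9 and 69.4 CPM in cho2set2 (2.54 ± 0.19, adjusted p = 7.84e-07), and YKR104W, a transporter fragment that is joined to NFT1 in some strains, at 4.85 and 4.16 CPM in cho2 and 25.8 and 32.5 CPM in cho2set2 (2.69 ± 0.24, adjusted p = 4.1e-06). Their changes were 2.76 and 2.85 with replicate 2 alone. Of the other genes of that end, chosen after their values were seen, the transporter gene VBA5 rose (0.90, adjusted p = 0.00467), the silencing factor gene SIR1 did not pass (0.16, adjusted p = 0.491) and GEX2 fell (-0.72, adjusted p = 0.0315), with 0.88, 0.10 and -1.14 for replicate 2 alone.

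Genes of actin cables and Cdc42 polarity were higher in 13 of 36 cases and lower in 1 (36.1% and 2.78%), with a median of 0.34. For replicate 2 alone 15 were higher and 0 lower, and 7 were higher without cho2 replicate 2 and without cho2set2 replicate 2. Of the 13, 11 have at least 2 kb of exon. BNR1, the formin of the bud neck, stood at 18.2 and 17.3 CPM in cho2 and 131 and 188 in cho2set2, a difference far larger than that between the libraries of a group (3.17 ± 0.19, adjusted p = 2.02e-07, and 3.40 ± 0.17 with replicate 2 alone). MSB1, a polarity factor (1.84 ± 0.21, adjusted p = 2.45e-05), BEM3, a GTPase activator for Cdc42 (1.78 ± 0.16, adjusted p = 4.1e-06), and STE20, the kinase that Cdc42 activates (1.55 ± 0.16, adjusted p = 1.05e-05), rose by 2.07, 1.96 and 1.77 with replicate 2 alone. PEA2, a polarisome subunit, was the member lower (-0.82), and its call was not made with replicate 2 alone (-0.85, adjusted p = 0.0848).

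The labels give no mating type, and genes of both types had counts. In cho2 the mean level per length was 31.5 FPKM for STE2, the receptor for alpha-factor in a cells, and 11.1 FPKM for STE3, the receptor for a-factor in alpha cells. It was 1.93 FPKM for the alpha pheromone gene MF(ALPHA)1 and 609 FPKM for the a pheromone gene MFA1. STE3 stood at 17.6 and 14.7 CPM in cho2. STE3 (YKL178C, chromosome XI, 113215 to 114627) had the largest fall among genes with at least 5 FPKM in cho2, to 4.16 and 0.919 CPM in cho2set2. Replicate 1 kept 25.8% of the cho2 mean and replicate 2 5.7%, and the log2 change was -2.62 ± 0.39 (adjusted p = 0.000279), or -4.11 ± 0.41 with replicate 2 alone. The ratio of counts, cho2 over cho2set2, was 6.08 (95% counting interval 4.42 to 8.56), and STE3 overlaps YKL177W. Of the other alpha-specific genes, the agglutinin SAG1 rose from 44.8 and 43.1 to 80.3 and 113 CPM (1.13 ± 0.18, adjusted p = 0.000448, and 1.36 with replicate 2 alone). MF(ALPHA)1, MF(ALPHA)2 and AFB1, with 0.45, 0.75 and -0.38, did not pass in either fit. Of 7 a-specific genes 3 were lower (42.9%) and 0 higher, in both fits, but 1, 2 and 1 were lower when cho2 replicate 1, cho2 replicate 2 or cho2set2 replicate 2 was left out. ASG7, a regulator of pheromone signalling, lies near the deleted SET2 on chromosome X (101150 to 101779), and the part of the deletion in its values was not tested. ASG7 stood at 26.8 and 23.9 CPM in cho2 and 14.8 and 4.33 in cho2set2 (-1.38 ± 0.35, adjusted p = 0.0144, and -2.54 with replicate 2 alone), and its call was lost without cho2 replicate 1 and without cho2set2 replicate 2. AGA2, a subunit of the a-agglutinin (-0.85 ± 0.16, adjusted p = 0.00194), and MFA1 (-0.54 ± 0.16) fell with it, with -0.94 and -0.82 for replicate 2 alone. The MFA1 call was lost in each of these 3 fits. BAR1 (0.23), MFA2 (-0.68), STE2 (0.41) and STE6 (0.19) did not pass in either fit. Among 28 haploid-specific and pheromone pathway genes, 9 rose and 1 fell (32.1% and 3.57%). PRM2, a membrane protein of mating cells, rose by 1.37 ± 0.24 (adjusted p = 0.000906), and the transcription factor STE12 by 1.11, or 1.57 and 1.29 with replicate 2 alone. With replicate 2 alone 8 rose, without HO, the mating-type endonuclease (1.37, and 1.17 with replicate 2 alone, adjusted p = 0.0694).

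Genes of the G1 cyclins and S phase were higher in 9 of 35 cases and lower in 2 (25.7% and 5.71%), with 10 and 2 for replicate 2 alone and 5 higher without cho2set2 replicate 2. By length, 6 of the 16 members of at least 2 kb and 3 of the 19 shorter ones were higher. Over all genes tested 11.3% were higher and 5.59% lower, and in the length classes from 2 kb upwards 26.6% to 50.0% were higher. CLB6, a cyclin of the S phase, had 3.01 and 2.81 CPM in cho2 and 8.2 and 9.05 in cho2set2 (1.56 ± 0.28, adjusted p = 0.00143, and 1.63 with replicate 2 alone). POL2, the catalytic subunit of DNA polymerase epsilon, stood at 39.5 and 36.7 CPM in cho2 and 80.7 and 109 CPM in cho2set2 (1.31 ± 0.17, adjusted p = 0.000103, and 1.51 with replicate 2 alone). The small subunits of ribonucleotide reductase, RNR2 (-0.75) and RNR4 (-0.61), were the members that fell, with -0.85 and -0.66 for replicate 2 alone.

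Genes under nitrogen catabolite repression, which supply poorer nitrogen sources, were higher in 9 of 34 cases and lower in 2 (26.5% and 5.88%), with a median of 0.13 and 9 and 3 with replicate 2 alone. The count of members lower ran from 1 to 3 with single libraries left out. PTR2, the di- and tripeptide transporter, stood at 3.12 and 5.51 CPM in cho2 and 13.1 and 21.4 in cho2set2 (2.00 ± 0.33, adjusted p = 0.000589, and 2.32 with replicate 2 alone). DUR1,2, the urea amidolyase, stood at 52.1 and 59 CPM in cho2 and 140.3 and 192 CPM in cho2set2 (1.58 ± 0.15, adjusted p = 7.65e-06), and OPT2, an oligopeptide transporter, rose by 1.44 ± 0.18 (adjusted p = 5.54e-05), with 1.79 and 1.56 with replicate 2 alone. DAL80, a GATA repressor of these genes, was lower in both fits. It had 13 and 10 counts in cho2 and 2 and 0 in cho2set2, a ratio of cho2 over cho2set2 of 10.9 (counting interval 2.69 to 95.2). It overlaps YKR033C, and its call was lost without either cho2 library, without cho2set2 replicate 2 and with DESeq2.

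Iron genes moved both ways. Of 30 genes of the regulon 10 rose and 2 fell (33.3% and 6.67%), or 9 and 1 with replicate 2 alone. Leaving out any 1 of the 4 libraries left 7 to 9 higher and 1 lower, and the median was 0.08. The metal reductases at the cell surface rose, FRE1 from 18.3 and 20.9 to 46.2 and 52.2 CPM (1.33 ± 0.15, adjusted p = 3.33e-05), FRE3 from 22.5 and 19.3 to 41.1 and 49.2 CPM (1.11 ± 0.16, adjusted p = 0.000185) and FRE4 from 16.7 and 11.4 to 35.8 and 43.4 CPM (1.49 ± 0.21, adjusted p = 0.000154). These changes were 1.41, 1.23 and 1.62 with replicate 2 alone. FIT2, a cell wall mannoprotein that retains siderophores, fell from 31.7 and 35.5 to 17 and 15.7 CPM (-1.03 ± 0.18, adjusted p = 0.00088, and -1.09 with replicate 2 alone).

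Glycolysis had the largest share of falls of the 34 gene lists. Of 17 genes 11 were lower and 0 higher (64.7% lower, against 5.59% of all genes), and the median log2 change was -0.58. For replicate 2 alone 10 were lower, and the count was 5 without cho2set2 replicate 2. TDH1 (YJL052W, chromosome X, 338271 to 339269), an isozyme of glyceraldehyde-3-phosphate dehydrogenase, stood at 631 and 957 CPM in cho2 and 346 and 144 in cho2set2. Replicate 2 was far below replicate 1 and both were below cho2 (-1.69 ± 0.30, adjusted p = 0.00111, and -2.47 ± 0.26 with replicate 2 alone). TDH2, another isozyme of that step, stood at 944 and 1148 CPM in cho2 and 605 and 382 CPM in cho2set2 (-1.08 ± 0.20, adjusted p = 0.00131), and TDH3, the most abundant isozyme, at 17727 and 20651 CPM in cho2 and 13877 and 12747 CPM in cho2set2 (-0.53, adjusted p = 0.0572), which did not pass. Their changes were -1.45 and -0.59 for replicate 2 alone, where TDH3 did not pass either (adjusted p = 0.121). The 3 copies are close in sequence, so reads may have been split among them, as with ENO1 and ENO2. CDC19, the main pyruvate kinase, stood at 524 and 631 CPM in cho2 and 285 and 205 in cho2set2 (-1.24 ± 0.20, adjusted p = 0.000447, and -1.49 ± 0.24 with replicate 2 alone), and the enolase gene ENO1 at 3573 and 4187 CPM in cho2 and 2295 and 1678 CPM in cho2set2 (-0.97 ± 0.16, adjusted p = 0.000755, and -1.21 with replicate 2 alone). GPM1, the phosphoglycerate mutase, fell by 0.80 on the log2 scale (SE 0.14, adjusted p = 0.00135), or by 0.96 with replicate 2 alone, and it overlaps YKL153W. ENO2 (-0.86), HXK1 (-0.68), PGI1 (-0.61), PGK1 (-0.58) and PFK1 (-0.51) were lower in both fits, with -1.07, -0.86, -0.68, -0.70 and -0.50 for replicate 2 alone, and their calls were lost without cho2set2 replicate 2, those of PGK1 and PFK1 also without cho2 replicate 2. PFK2 (-0.47) was called in the fit of all libraries and lost without any single one of the 4 (-0.40 with replicate 2 alone, adjusted p = 0.158). The 6 members that did not pass, in either fit, ran from -0.53 (TDH3) to 0.31 (PYK2), the minor pyruvate kinase. HXK2, the hexokinase of glucose-grown cells (0.08), and PYK2 were the members above 0. The core of the element that the glycolytic activator Gcr1 binds, CTTCC, was found before 15 of the 17 genes and before 11 of the 11 called, but also in 65.6% of all windows.

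Fermentation, sugar transport and galactose genes were called in fewer cases. Among 15 fermentation enzymes 3 fell and 1 rose (20% and 6.67%), also with replicate 2 alone, but 2 fell without cho2 replicate 2 and 1 without cho2set2 replicate 2. PDC1, the main pyruvate decarboxylase, stood at 1199 and 1436 CPM in cho2 and 786 and 619 CPM in cho2set2 (-0.91 ± 0.19, adjusted p = 0.00368, and -1.09 with replicate 2 alone; the call was lost without cho2set2 replicate 2), while its isozyme PDC5 rose from 14.4 and 14.4 to 25.2 and 30.8 CPM (0.95 ± 0.18, adjusted p = 0.00201, and 1.09 with replicate 2 alone). PDC6, a minor isozyme (-1.09, and -1.20 with replicate 2 alone), and ALD2, an aldehyde dehydrogenase (-0.76, and -0.89), were the other falls, and the PDC6 call was lost in both of the fits that called fewer. Among 20 hexose transporter genes 3 fell and 1 rose (15% and 5%), or 3 and 2 with replicate 2 alone. HXT3 (-0.94 ± 0.16, adjusted p = 0.000698), HXT9 (-1.33 ± 0.27, adjusted p = 0.00287) and HXT10 were the falls, and HXT14 the rise. HXT3 and HXT9 had -1.01 and -2.03 with replicate 2 alone, and HXT9 stood at 23.4 and 22.9 CPM in cho2 and 12.5 and 5.64 CPM in cho2set2. HXT10 had 36 and 36 counts in cho2 and 11 and 0 in cho2set2, and its call was lost without any single library other than cho2set2 replicate 1 and with DESeq2. Of 8 genes of galactose use 2 fell (25.0%), in both fits. GAL7, the uridylyltransferase, stood at 9.91 and 10.3 CPM in cho2 and 3.26 and 1.31 in cho2set2 (-2.11 ± 0.36, adjusted p = 0.000942, and -2.93 ± 0.45 with replicate 2 alone). The epimerase gene GAL10 stood at 25.8 and 26.4 CPM in cho2 and 11.7 and 13.4 CPM in cho2set2 (-1.06 ± 0.19, adjusted p = 0.00117, and -0.96 with replicate 2 alone), and the other 6 did not pass. PMA2, an isoform of the plasma membrane proton pump, stood at 891 and 917 CPM in cho2 and 338 and 266 CPM in cho2set2 (-1.58 ± 0.27, adjusted p = 0.000746, and -1.76 with replicate 2 alone). It is close in sequence to PMA1, whose reads the counting could have shared.

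**Figure D4:**
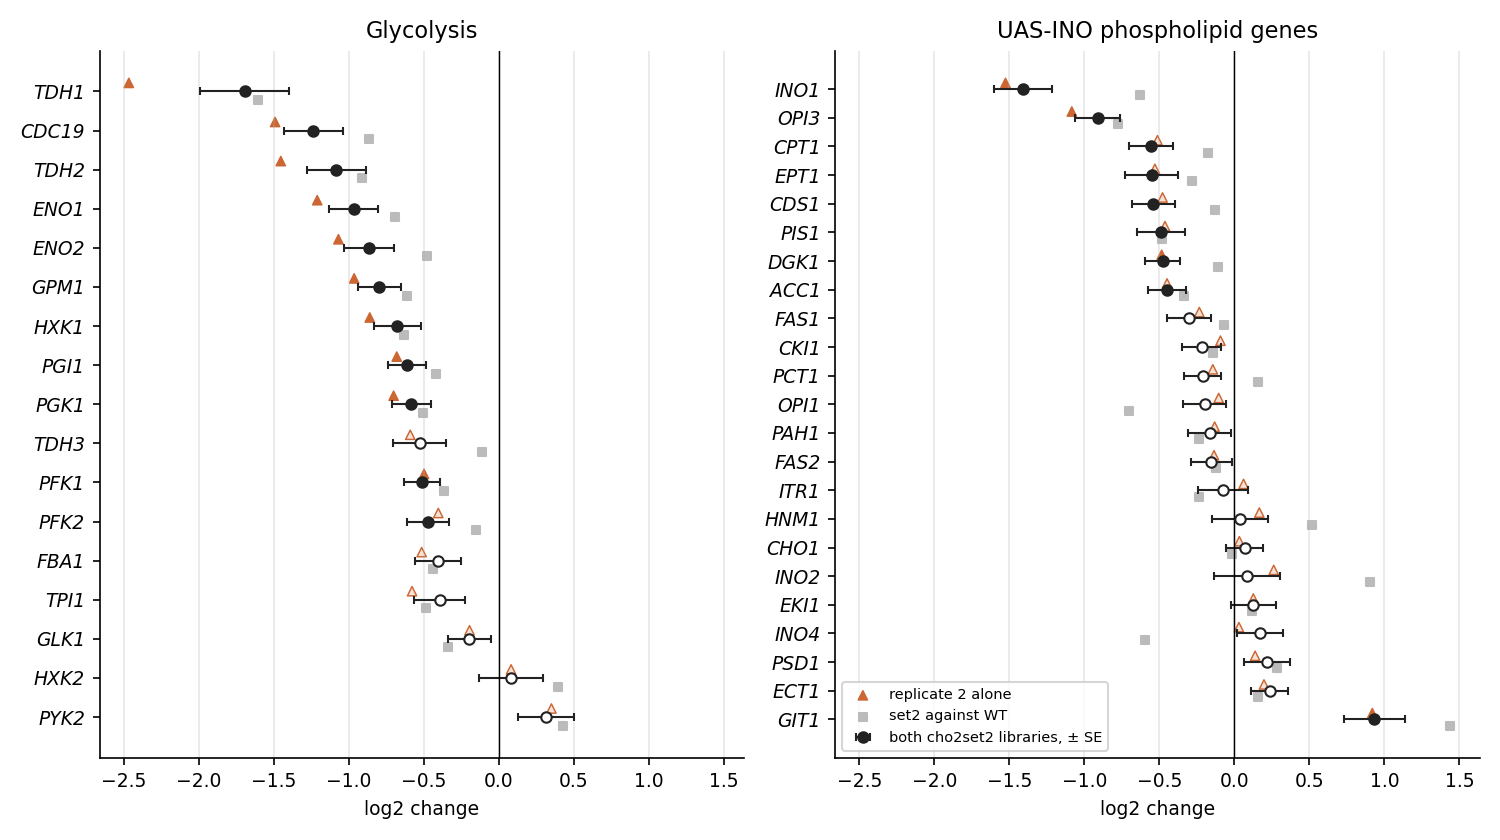
Log2 change of every tested gene of glycolysis (left) and of the UAS-INO phospholipid list (right), with both cho2set2 libraries (circles with SE, filled where the adjusted p was under 0.05), with replicate 2 alone (triangles, filled likewise) and for set2 against WT (grey squares). TDH1 at -1.69 and INO1 at -1.41 lead the falls, and 15 of the 17 glycolysis circles lie below 0.

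The list of phospholipid genes named here after the inositol-sensitive element (UAS-INO) includes enzymes that draw on the same lipids as Cho2. The letters of the element, as searched below, were found before 11 of its 23 genes. Of the 23 genes 8 were lower and 1 higher (34.8% and 4.35%), with a median log2 change of -0.20. With replicate 2 alone 3 were lower and 1 higher. The count of members lower was 6 without cho2 replicate 2, and 2 without cho2 replicate 1 or cho2set2 replicate 2. INO1 (YJL153C, chromosome X, 134332 to 135933), which makes inositol phosphate from glucose-6-phosphate, stood at 730.4 and 492 CPM in cho2 and 248 and 212 in cho2set2. The cho2 libraries differed from each other by about as much as replicate 1 of cho2set2 did from the nearer of them, and both cho2set2 libraries were lower (-1.41 ± 0.19, adjusted p = 0.000143, and -1.53 ± 0.26 with replicate 2 alone, adjusted p = 0.00109). OPI3, which carries out the later methylations after the step of Cho2, stood at 539 and 477 CPM in cho2 and 300.3 and 239.7 in cho2set2 (-0.91 ± 0.15, adjusted p = 0.000598, and -1.08 ± 0.18 with replicate 2 alone, adjusted p = 0.000984). DGK1, a diacylglycerol kinase (-0.48 ± 0.12, adjusted p = 0.00991), also fell in both fits (-0.48 with replicate 2 alone), and its call was lost without cho2 replicate 1 and without cho2set2 replicate 2. The CDP-alcohol transferases CPT1 (-0.56 ± 0.15), EPT1 (-0.55 ± 0.18) and PIS1 (-0.49 ± 0.16), the CDP-diacylglycerol synthase CDS1 (-0.54 ± 0.14) and the acetyl-CoA carboxylase ACC1 (-0.45 ± 0.12) were called with both libraries and not with replicate 2 alone, where their changes ran from -0.53 (EPT1) to -0.45 (ACC1). GIT1, a transporter of glycerophosphoinositol, rose from 11.5 and 8.81 to 19.7 and 19.3 CPM (0.93 ± 0.20, adjusted p = 0.00525, and 0.92 with replicate 2 alone), and this call was lost without cho2 replicate 2. In neither fit did the remaining members pass, among them the activator genes INO2 (0.09) and INO4 (0.17), the repressor gene OPI1 (-0.20) and CHO1, the phosphatidylserine synthase, with 301 and 284 CPM in cho2 and 315 and 299.6 in cho2set2 (0.07, adjusted p = 0.76).

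The UAS-INO element was searched as CATGTGAA, both strands, in the same windows. It was found before 11 of the 23 genes (47.8%) against 1.47% of all windows (85 of 5786). The 3 called members that held it are shown with CHO1, which held it and was not called. The element is in capitals, TTCACATG where it lies on the opposite strand.
INO1 (chrX:136095-136124, - strand): aacttatttaaTTCACATGgagcagagaaa
CPT1 (chrXIV:380977-381006, - strand): cgattaaagtgCATGTGAAaattcgcggga
CDS1 (chrII:297886-297915, - strand): agatgggatgaCATGTGAAaagtgtaacaa
CHO1 (chrV:208617-208646, - strand): gcctttgagctTTCACATGgacccatctaa
The 4 elements lay 153 (CHO1) to 172 (INO1) bases before the coding start. These exact letters were not in the windows of OPI3, PIS1, EPT1, DGK1 and ACC1.

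Sterol synthesis genes were lower in 10 of 30 cases and higher in 1 (33.3% and 3.33%), with a median of -0.30. With replicate 2 alone 6 were lower and 3 higher, and 5, 4 and 2 were lower without cho2 replicate 1, cho2 replicate 2 and cho2set2 replicate 2. ERG25, the methyl oxidase of sterol demethylation, stood at 748 and 707 CPM in cho2 and 333 and 340.4 in cho2set2 (-1.11 ± 0.18, adjusted p = 0.000455, and -1.10 ± 0.23 with replicate 2 alone). ERG1, the squalene epoxidase, stood at 673 and 619 CPM in cho2 and 407 and 405 CPM in cho2set2 (-0.67 ± 0.12, adjusted p = 0.00136, and -0.67 with replicate 2 alone). ERG28, a scaffold for these enzymes, fell (-0.62 ± 0.13, adjusted p = 0.00329, and -0.75 with replicate 2 alone) and its call was lost without cho2set2 replicate 2, while ERG4, which carries out the last step to ergosterol, rose (0.60 ± 0.15, adjusted p = 0.0117, and 0.70 with replicate 2 alone), a call lost without cho2 replicate 1 and without cho2set2 replicate 2. Of 20 genes of fatty acid synthesis and desaturation, 3 were higher and 1 lower, or 3 and 0 with replicate 2 alone, and 1 was higher without cho2 replicate 1 and without cho2set2 replicate 2. The 3 higher and 1 lower are 15% and 5% of that list, against 11.3% and 5.59% of all genes. HFA1, the mitochondrial acetyl-CoA carboxylase, rose from 45 and 39 to 127 and 150.5 CPM (1.72 ± 0.14, adjusted p = 2.15e-06, and 1.84 with replicate 2 alone), and its cytosolic paralogue ACC1 was the member lower.

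Stress response genes were lower in 10 of 48 cases and higher in 1 (20.8% and 2.08%), also with replicate 2 alone, with a median of -0.28. Leaving out cho2 replicate 1, cho2 replicate 2 or cho2set2 replicate 2 left 5, 4 and 2 members lower. SSA4, an inducible chaperone of the HSP70 family, stood at 1204 and 992 CPM in cho2 and 566 and 455 in cho2set2 (-1.10 ± 0.14, adjusted p = 9.01e-05, and -1.27 with replicate 2 alone). HSP30, a stress protein of the plasma membrane, stood at 130.5 and 126 CPM in cho2 and 76 and 54.5 CPM in cho2set2 (-0.98 ± 0.18, adjusted p = 0.00185, and -1.24 with replicate 2 alone). The cell wall protein gene SPI1 (-0.89 ± 0.19) and the phosphatase gene SDP1 (-0.78 ± 0.19) fell too, with -1.06 and -1.12 for replicate 2 alone. Both calls were lost without cho2set2 replicate 2, and that of SDP1 also without cho2 replicate 1 or 2. The stress element AGGGG was found before 42 of the 48 genes (87.5%) and before 44.3% of all genes called lower, against 34.5% of all windows and 26.5% of those called higher.

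Meiosis and sporulation genes, expressed at low levels here, were lower in 11 of 48 cases and higher in 1 (22.9% and 2.08%), with a median of -0.38. With replicate 2 alone 11 were lower and 0 higher, and 7, 5 and 3 were lower without cho2 replicate 1, cho2 replicate 2 and cho2set2 replicate 2. IRC18 stood at 20.9 and 21.2 CPM in cho2 and 6.18 and 1.31 in cho2set2 (-2.44 ± 0.42, adjusted p = 0.000816, and -3.99 ± 0.44 with replicate 2 alone), and its neighbour LOH1 at 13.7 and 16.1 CPM in cho2 and 3.82 and 2.36 CPM in cho2set2 (-2.25 ± 0.36, adjusted p = 0.00046, and -2.65 with replicate 2 alone). Both are known from the outer layer of the spore wall. SSP1, which closes the prospore membrane, stood at 14.3 and 16.1 CPM in cho2 and 5.28 and 2.49 CPM in cho2set2 (-1.95 ± 0.38, adjusted p = 0.00248, and -2.60 with replicate 2 alone). SHC1, which activates chitin synthesis in spores, stood at 99.2 and 81.1 CPM in cho2 and 34.7 and 23.5 CPM in cho2set2 (-1.63 ± 0.17, adjusted p = 1.42e-05, and -1.94 with replicate 2 alone). GAS4, a glucan-modifying enzyme of the spore wall, stood at 11.5 and 14.8 CPM in cho2 and 6.85 and 1.31 CPM in cho2set2 (-1.65 ± 0.46, adjusted p = 0.0225, and -3.31 ± 0.48 with replicate 2 alone, adjusted p = 0.000348), with replicate 2 more than 5-fold below replicate 1, and its call was lost without cho2 replicate 1, cho2 replicate 2 or cho2set2 replicate 2. The remaining members of the 15 largest falls were MCH2, related to monocarboxylate permeases (-1.96 ± 0.30), UBC11, related to ubiquitin-conjugating enzymes (-1.59 ± 0.29), and YPR078C (-2.37 ± 0.40), YKL162C-A (-1.63 ± 0.30), DFP4 (-1.70 ± 0.40) and YIL171W (-1.59 ± 0.52), with -2.87, -2.21, -3.70, -2.08, -2.87 and -2.60 with replicate 2 alone. The DFP4 call was lost without cho2set2 replicate 2, and that of YIL171W in 7 alternative fits.

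Mitochondrial gene groups had more calls with both cho2set2 libraries than with replicate 2 alone. Of 71 mitochondrial ribosomal protein genes 13 were higher and 0 lower (18.3%), with a median of 0.32. With replicate 2 alone 1 was higher and the median was 0.13, and the count was 1 and 2 without cho2 replicate 1 and cho2 replicate 2 and 16 without cho2set2 replicate 2. MRPS17 stood at 42.3 and 48.7 CPM in cho2 and 91.2 and 65.6 in cho2set2, with replicate 1 the higher (0.79 ± 0.18, adjusted p = 0.00797, and 0.53 ± 0.20 with replicate 2 alone, adjusted p = 0.098). Respiratory chain and ATP synthase genes gave 10 higher and 1 lower of 37 (27.0% and 2.70%), with a median of 0.40, and 2 higher and 2 lower with replicate 2 alone, 1 and 4 higher without cho2 replicate 1 and 2 and 3 higher without cho2set2 replicate 2. The median was 0.35 with replicate 2 alone. ATP20, subunit g of the ATP synthase, rose in both fits, from 154 and 162 to 338 and 310.5 CPM (1.03 ± 0.17, adjusted p = 0.000604, and 0.97 with replicate 2 alone), and so did NDE1, an external NADH dehydrogenase (0.62 ± 0.18, and 0.77 with replicate 2 alone), whose call was lost without cho2 replicate 1 and without cho2set2 replicate 2. CYC1, the cytochrome c of aerobic cells, stood at 243 and 229 CPM in cho2 and 455 and 344 CPM in cho2set2 (0.76 ± 0.20, adjusted p = 0.0179), and its call was not made with replicate 2 alone (0.54, adjusted p = 0.15). The TCA cycle had 4 of 18 higher (22.2%) and all 18 values above 0, with a median of 0.33. IDH1 (0.68 ± 0.17) and LSC2 (0.60 ± 0.15), subunits of isocitrate dehydrogenase and succinyl-CoA ligase, were the 2 higher also with replicate 2 alone (0.74 and 0.65). The count was 4 without cho2 replicate 2 and 0 without cho2 replicate 1 or cho2set2 replicate 2, so that no TCA cycle call was made in those 2 fits.

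Sulfate assimilation and methionine genes had fewer calls with both libraries than with replicate 2 alone. Of 34 genes 2 were higher and 0 lower (5.88%) with both libraries, and 13 with replicate 2 alone, where the median was 0.69 against 0.27. The count was 4, 1 and 1 when cho2 replicate 1, cho2 replicate 2 or cho2set2 replicate 2 was left out. SUL1, the sulfate permease, stood at 940.4 and 745 CPM in cho2 and 991 and 1863 in cho2set2, with replicate 1 just above the cho2 libraries and replicate 2 far above them (0.76 ± 0.22, adjusted p = 0.0312, and 1.14 ± 0.18 with replicate 2 alone). Its call was lost in each of those 3 fits. JLP1, a dioxygenase that releases sulfite from sulfonates, stood at 22.1 and 30.5 CPM in cho2 and 50.1 and 66.7 CPM in cho2set2, both above cho2 (1.15 ± 0.19, adjusted p = 0.000674, and 1.35 with replicate 2 alone). CYS3, the cystathionine gamma-lyase of transsulfuration, stood at 153 and 112 CPM in cho2 and 162 and 341 CPM in cho2set2 (0.92 ± 0.28, adjusted p = 0.037, and 1.36 with replicate 2 alone). The CYS3 call was lost in the same 3 fits, with DESeq2 and with the replicate number as a block. Among lists with at least 8 calls in either fit, the mitochondrial ribosome, the respiratory chain, the sulfur, the UAS-INO and sterol lists were those whose counts differed by over 1.5 times between the fits.

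The comparison of set2 with WT, 2 libraries each, asked the same of cells with CHO2 and shares no library with that of cho2set2 and cho2. It gave 1222 rises (18.6%) and 1049 falls (15.9%). Of the 742 genes that rose in the cho2 background, 617 (83.2%) also rose there, which is 50.5% of the 1222, and of the 368 that fell 281 (76.4%) also fell there, which is 26.8% of the 1049. Opposite calls were made for 11 genes, and 201 genes were called in the cho2 background alone. Over the 6582 genes the log2 changes had a Pearson r of 0.56, as a description across genes, which are not independent replicates. The overlaps and this r are those of both cho2set2 libraries. Of the leading rises, log2 changes in set2 against WT were 4.50 for DRS1, 3.47 for MDN1, 3.54 for FLO10 and 3.40 for BNR1 beside 4.02, 3.40, 3.41 and 3.17 in the cho2 background. Of the leading falls, STE3 had -6.29 in set2 against WT beside -2.62 in the cho2 background, IRC18 -4.13 beside -2.44, SSP1 -3.15 beside -1.95, YKL162C-A -2.99 beside -1.63 and TDH1 -1.60 beside -1.69. With replicate 2 alone the rises and falls of all 9 genes in the cho2 background were larger, as given above, among them DRS1 at 4.32 and IRC18 at -3.99. The difference between the backgrounds, the interaction term, did not pass for these 9 genes. That of STE3 was 3.67 ± 0.86 (adjusted p = 0.0667), or 2.18 ± 0.78 with replicate 2 alone (adjusted p = 0.458). The interaction term, the change in the cho2 background minus that in CHO2 cells, was not called for any of the 131 assembly factors, 17 glycolysis genes or 23 UAS-INO genes. It was called for 0.912% of all genes tested, so the absence of calls in lists of this size does not show that their changes are alike. INO1 had -0.63 in set2 against WT and -1.41 here, an interaction term of -0.78 ± 0.27 (adjusted p = 0.22), which does not show that the changes are alike.

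The interaction term passed for 60 of 6582 genes (0.912%), 24 higher and 36 lower in the cho2 background, and for 14 with cho2set2 replicate 2 alone, all among the 60. It passed for 22 and 25 genes without cho2 replicate 1 and 2, for 107 and 25 without WT replicate 1 and 2, and for 9 without set2 replicate 1. Of the 36 lower, all 36 rose in set2 against WT, and 27 were called neither way in the cho2 background, 7 lower and 2 higher. Of the 24 higher, 21 fell in set2 against WT, and 15 were called neither way in the cho2 background. In 33 of the 60 the changes in the 2 backgrounds had opposite signs. The term is made from these same changes. Choosing genes by it favours rises in set2 against WT among the lower terms and falls among the higher ones. It also favours opposite signs, so these counts are not a result independent of the choice.

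Amino acid synthesis genes under the activator Gcn4 made up 17 of the 36 lower terms, out of 71 tested, while 0.912% of all genes had a called term. With replicate 2 alone these 17 terms ran from -2.34 to -0.73. Their calls were then not made, other than those of ARG4 (-1.81) and CPA1 (-1.39). Of the 71 genes 52 had a negative term, with a median term of -0.58 against 0.01 over all genes. In set2 against WT 46 of them were higher, and in the cho2 background 7 were higher and 2 lower (9.86% and 2.82%; 8 and 1 with replicate 2 alone, and 4, 4 and 3 higher without cho2 replicate 1, cho2 replicate 2 and cho2set2 replicate 2), with medians of 0.68 and 0.10. ARG1 (YOL058W, chromosome XV, 219211 to 220473), the argininosuccinate synthase, stood at 145 and 52.8 CPM in WT and 1203 and 998 in set2, and at 48.2 and 56.9 in cho2 and 100.1 and 115 in cho2set2. The set2 libraries stood far above all the others, and the WT libraries differed from each other by more than 2-fold. Its changes were 3.48 ± 0.32 in set2 against WT and 1.03 ± 0.30 in cho2set2 against cho2 (adjusted p = 0.0305; 1.14 with replicate 2 alone, adjusted p = 0.0569, where it did not pass), and the interaction term was -2.44 ± 0.42 (adjusted p = 0.0117), or -2.34 ± 0.51 with replicate 2 alone (adjusted p = 0.101). ARG3, the ornithine carbamoyltransferase, stood at 60.7 and 27.5 CPM in WT, 305 and 239.5 in set2, 26.9 and 26.3 in cho2 and 28.5 and 34.1 in cho2set2 (interaction -2.40 ± 0.37, adjusted p = 0.00585, and -2.27 ± 0.44 with replicate 2 alone, adjusted p = 0.0619). VHT1, the biotin transporter, stood at 43.7 and 22.2 CPM in WT, 224 and 149 in set2, 36.8 and 37.6 in cho2 and 27 and 38.1 in cho2set2, so that it was high in set2 and no other of the 4 groups (interaction -2.70 ± 0.37, adjusted p = 0.00215, and -2.47 ± 0.41 with replicate 2 alone, adjusted p = 0.024). YDL057W was low in WT, at 10.5 and 12.9 CPM, and stood at 45.7 and 41.4 in set2, 60.8 and 56.6 in cho2 and 42.7 and 42.5 in cho2set2 (interaction -2.35 ± 0.22, adjusted p = 0.000145, and -2.35 ± 0.25 with replicate 2 alone, adjusted p = 0.00194). LEU9, a 2-isopropylmalate synthase, rose in both backgrounds (1.97 here, 2.07 with replicate 2 alone and 2.90 in set2 against WT) and so did GDH1, a glutamate dehydrogenase (0.99, 1.18 and 0.95); LEU9 overlaps YOR108C-A.

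The Gcn4 element, TGACTC, was found before 52 of the 71 genes (73.2%) and in 12.9% of all windows. With terms called in the fit of both cho2set2 libraries, it was found before 25 of the 36 with a lower interaction term (69.4%) and before 1 of 22 with a higher term (4.55%). These shares were not taken for the terms called with replicate 2 alone. Of the 25, the 4 with the lowest terms that are named here and HIS4 are shown, with the element in capitals, GAGTCA where it lies on the opposite strand.
ARG1 (chrXV:218925-218954, + strand): tgccgtatggaaGAGTCAtttaaaggcagg
ARG3 (chrX:268473-268502, + strand): agggtcacgtcgTGACTCatatgctttctt
ARO5 (chrVII:288246-288275, + strand): ttcatatataatGAGTCAtttgtttctgtc
HIS4 (chrIII:68515-68544, - strand): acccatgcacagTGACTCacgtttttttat
VHT1 (chrVII:619950-619979, - strand): caaaaatctgcaTGACTCttacggctataa
The elements lay 103 (VHT1) to 308 (ARG3) bases before the coding start. VHT1 stood on the iron list and ARO5 on none. ARO5 had a term of -2.09 ± 0.35 (adjusted p = 0.00976), or -1.89 ± 0.39 with replicate 2 alone (adjusted p = 0.0873).

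Histone genes made up 5 of the 24 higher terms. The median term of the 11 tested was 0.79, against 0.01 over all genes. With replicate 2 alone the 5 terms ran from 0.81 to 1.51, and the calls of HHF1, HHT1 and HTB2 were not made. Of 11 histone genes 3 rose and 0 fell in the cho2 background (27.3%), also with replicate 2 alone, and 0 rose and 9 fell in set2 against WT. HTA2, a gene of histone H2A, stood at 238 and 263 CPM in WT and 138 and 163 in set2, and at 104 and 112 in cho2 and 212 and 185 in cho2set2. The cho2 libraries stood below those of WT, and SET2 loss went with lower values in CHO2 cells and with higher ones in cho2 cells (-0.74 ± 0.15 and 0.88 ± 0.15, interaction 1.62 ± 0.21, adjusted p = 0.00212, and 1.51 ± 0.23 with replicate 2 alone, adjusted p = 0.0189). HHF2, a gene of histone H4, stood at 414 and 476 CPM in WT, 249.6 and 304 in set2, 202 and 198 in cho2 and 368 and 326 in cho2set2 (interaction 1.48 ± 0.20, adjusted p = 0.00212, and 1.39 ± 0.21 with replicate 2 alone). It encodes the same protein as HHF1, and reads may have been shared between the copies. HTB2, a gene of histone H2B, rose in the cho2 background (0.69 ± 0.14, adjusted p = 0.00335, and 0.76 with replicate 2 alone).

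FDH1, the formate dehydrogenase, had the highest interaction term among the called terms of genes with at least 5 FPKM. It stood at 1013 and 1372 CPM in WT and 176 and 179 in set2, and at 2234 and 1963 in cho2 and 1656 and 1543 in cho2set2, so that the change was -2.75 ± 0.17 in CHO2 cells and -0.39 ± 0.16 in cho2 cells (adjusted p = 0.111; interaction 2.36 ± 0.23, adjusted p = 0.000145, and 2.30 ± 0.26 with replicate 2 alone, adjusted p = 0.00194). YPL276W, which overlaps the related gene FDH2 and may share reads with FDH1, had a term of 2.25 ± 0.34 (adjusted p = 0.00585), or 2.32 ± 0.39 with replicate 2 alone (adjusted p = 0.0242). The meiotic recombinase gene DMC1 stood at 26.6 and 33.1 CPM in WT, 3.85 and 5.74 in set2, 31.4 and 37.1 in cho2 and 29.7 and 18.8 in cho2set2 (interaction 2.14 ± 0.34, adjusted p = 0.00664, and 1.77 ± 0.32 with replicate 2 alone, adjusted p = 0.0444). The sporulation septin gene SPR28 had a term of 2.21 ± 0.47 (adjusted p = 0.0392) and was not called with replicate 2 alone (1.43 ± 0.37, adjusted p = 0.206). RAD28 was the cryptic promoter gene with a called term (0.98 ± 0.18, adjusted p = 0.0192, and 1.14 ± 0.18 with replicate 2 alone, adjusted p = 0.0189), rising by 1.63 in cho2 cells and 0.65 in CHO2 cells.

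**Figure D5:**
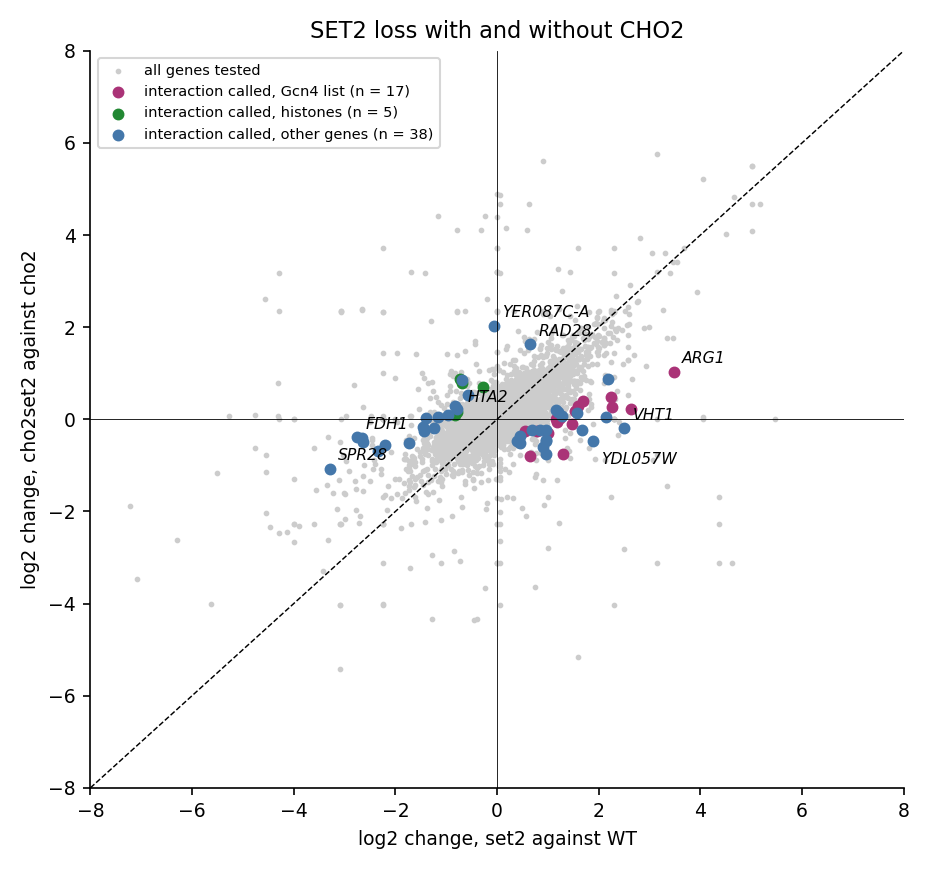
Log2 change with SET2 loss in CHO2 cells (set2 against WT, horizontal axis) and in cho2 cells (cho2set2 against cho2, vertical axis) for all 6582 genes, with the 60 genes whose interaction term passed in colour. The 17 Gcn4 genes lie to the right of the dashed line of equal change and the 5 histone genes to the left of it; grey points far from the centre include genes with few counts.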

How the data were processed

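RNA-seq of 12 yeast libraries was used as 1 table of 7126 genes. The gene-level counts were deposited by the authors, and the submitters' processing notes name cutadapt 1.9.1, HISAT2 2.0.1, HTSeq 0.6.1 and the build sacCer3, while roles, settings and strand use are not given in the sources used here. The deposited FPKM were the authors' counts divided by library size and by the exonic gene size in the table, and values recomputed in that way differed from them by at most 0.005. Exonic gene sizes and positions were also used as deposited.

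Genes with an FPKM of at least 1 in at least 2 libraries were tested, SET2 left out. Counts were fitted with edgeR 4.0.16 (R 4.3.3, limma 3.58.1) as a quasi-likelihood model of all 12 libraries with TMM scaling, 1 mean per genotype and 6 residual degrees of freedom (common biological coefficient of variation 0.12). P-values were adjusted by the Benjamini-Hochberg method over 6582 genes and called at 0.05. Fits with replicate 2 alone leave out the library labelled cho2set2 replicate 1, and the lone library is then assumed to vary like the other groups. SE is the log2 change over the square root of its F. The fits were tested on simulated counts. Tables were joined with pandas 2.3.3 and drawn with matplotlib 3.10.9, both under Python 3.11.15. Total counts per library set the precision, and counting intervals are exact at 95%.

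The members and the 34 gene lists were chosen with earlier results of these data known. Named genes were SET2 and CHO2, the 15 largest rises and falls among calls without overlap of the groups that were also made with replicate 2 alone and had at least 5 FPKM in the higher group, up to 4 called members with the largest changes per list, every member of the cryptic promoter, UAS-INO, glycolysis, alpha- and a-specific lists, and the 5 highest and 5 lowest interaction terms with at least 5 FPKM. Other genes given with values or sequences, RIX1, SPB1, URB2, MAK21, ERB1, PWP2, STE12, RCO1, EAF6, TIR3, FLO5, FLO11, PEA2, VBA5, SIR1, GEX2, RNR2, RNR4 and HIS4, were chosen after their values were seen or as the remaining members of a count, and so was the choice of motifs shown. Gene symbols came from the table for 5110 genes and from RefSeq for 1007. Motifs were searched in 5786 windows of 500 bases before the coding start in the RefSeq R64 (sacCer3) genome.

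Alternatives were median-of-ratios scaling, no filter, an FPKM minimum of 5, DESeq2 1.42.0, a fit of the compared groups alone, a replicate block, and each library left out. The opi1 and opi1set2 libraries entered the fit for the spread alone.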

Additional observations from a re-analysis of the deposited data

Results flagged for a closer look

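The change with SET2 loss in cho2 cells minus the change with SET2 loss in CHO2 cells was tested directly, as an interaction term on the log2 scale, and the 10 genes with the lowest and highest called terms are given here because that test of the difference passed for them. The 5 lowest were VHT1 at -2.70, ARG1 at -2.44, ARG3 at -2.40, YDL057W at -2.35 and ARO5 at -2.09. ARO5 stood at 158 and 76 CPM in WT, 551 and 479 in set2, 75.3 and 74.8 in cho2 and 66.5 and 89.2 in cho2set2, so that the set2 libraries were the high ones. The 5 highest were FDH1 at 2.36, YPL276W at 2.25, SPR28 at 2.21, DMC1 at 2.14 and YER087C-A at 2.10. The terms of FDH1 (2.12 to 2.56 over libraries left out), VHT1 (-3.26 to -2.29) and YDL057W (-2.51 to -2.21) were called under every alternative run. Those of DMC1 and YPL276W were lost without set2 replicate 1, and those of ARG3 and ARO5 without cho2set2 replicate 1 and without set2 replicate 1. The ARG1 call was lost also without cho2 replicate 2. The SPR28 call was lost in 6 alternatives, among them that with cho2set2 replicate 2 alone (1.43 ± 0.37, adjusted p = 0.206), and the YER087C-A call in 9. No term changed sign. The cause of these differences was not tested.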

How the results depend on the processing

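The calls for SET2 loss in cho2 cells numbered 1110, with 742 higher and 368 lower, and 1090 to 1205 under other scaling, other filters, DESeq2 and a fit of the compared groups alone, where 706 to 776 were higher and 358 to 468 lower. With a library left out they ran from 491 to 1037 in all, from 418 to 715 higher and from 73 to 322 lower, lowest without cho2set2 replicate 2. Interaction calls numbered 60, ran from 9 (without set2 replicate 1) to 107 (without WT replicate 1) with a library left out, and were 133 with DESeq2, where 75 were higher in place of 24. The cause was not tested. Of 190 genes named, 148 were called, none reversed under any alternative, and leaving out a library lost 22 (cho2set2 replicate 1) to 57 (cho2set2 replicate 2) of these calls.

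With the replicate number as a block, 1008 genes were called, 689 higher and 319 lower, and 58 interaction terms. Same-numbered libraries of cho2 and cho2set2 did not deviate together (r = 0.018 across genes, -0.139 to 0.103 over pairs of genotypes). These correlations cannot tell whether same-numbered libraries were prepared together.

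With 2 libraries a genotype and 3 counts equal to 0.323 to 0.394 CPM, changes of weakly expressed genes were not detectable at this depth unless large.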

Other observations

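Of 36 autophagy genes 3 were higher and 6 lower (8.33% and 16.7%, against 11.3% and 5.59% of all genes), with a median log2 change of -0.24, or 3 and 5 with replicate 2 alone, and the count of members lower was 1 without either cho2 library and 0 without cho2set2 replicate 2. ATG2, a lipid transfer protein of the growing autophagosome, stood at 55.1 and 52.9 CPM in cho2 and 89.1 and 112 CPM in cho2set2 (0.90 ± 0.14, adjusted p = 0.000369, and 1.06 with replicate 2 alone). The mitophagy factor ATG33 stood at 433 and 423 CPM in cho2 and 291 and 279 CPM in cho2set2 (-0.59 ± 0.12, adjusted p = 0.00432, and -0.62 with replicate 2 alone; the call was lost without cho2set2 replicate 2), and both cho2set2 libraries lay below both cho2 libraries. ATG40, a receptor for autophagy of the endoplasmic reticulum (-0.58 ± 0.15), fell and the lipid kinase partner VPS15 (0.59 ± 0.14) rose, by 0.77 with replicate 2 alone, where ATG40 had -0.76. Both calls were lost when cho2 replicate 1, cho2 replicate 2 or cho2set2 replicate 2 was left out.

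Of 20 genes of gluconeogenesis and the glyoxylate cycle 1 was higher and 1 lower (5% and 5%, against 11.3% and 5.59% of all genes). SFC1, a succinate and fumarate carrier, rose from 595 and 628 to 793 and 943 CPM (0.51 ± 0.13, adjusted p = 0.0145, and 0.62 with replicate 2 alone), a call lost in the same 3 fits. FBP1, fructose-1,6-bisphosphatase, fell from 2724 and 2487 to 1789.6 and 1803 CPM (-0.54 ± 0.13, adjusted p = 0.0123), and its call was not made with replicate 2 alone (-0.53, adjusted p = 0.0546), without cho2 replicate 1 or without cho2set2 replicate 2. Of 49 peroxisome and beta-oxidation genes 1 was higher and 2 lower (2.04% and 4.08%), of which PEX31 (0.70 ± 0.19) was called also with replicate 2 alone (0.83), but not without cho2 replicate 1 or cho2set2 replicate 2. Of 20 genes of the SAM cycle and transsulfuration 1 was higher and 1 lower (5% and 5%). CYS3 was called higher, a call that 5 alternative fits did not make. STR2, a cystathionine gamma-synthase, was called lower (-0.53 ± 0.13, and -0.52 with replicate 2 alone), which was lost without cho2 replicate 1 and without cho2set2 replicate 2. With replicate 2 alone 4 were higher and 2 lower. None of 15 PP2A subunits and methylation enzymes passed in either edgeR fit, with a median of -0.13.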
